A study of Mus musculus with 6 samples.

Results

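The genes described here are Trp53, which encodes p53, and 9 genes of its network, namely Mdm2, Cdkn1a, Cdkn2a, Bax, Bbc3, Pmaip1, Ccng1, Sesn2 and Gdf15. They were taken by gene symbol from the count table of NT3 tumors, and all 10 were found among its 23358 entries. The question asked of them was whether the target genes follow the Trp53 transcript from tumor to tumor, and whether any of them differs with the mouse line or the site of the tumor. In short, Mdm2 had the same order of tumors as Trp53, and Sesn2 and Ccng1 had similar ones (Spearman's rho 1, 0.886 and 0.829, n = 6). The share of all genes with such a rho was not computed. Outside the 9 genes, Ccnd1 had a rho of 1 and Trp63 one of 0.943. By Pearson's r, Bbc3 (0.913), Mdm2 (0.897) and Ccng1 (0.860) were highest of the 9. Of all genes tested, 2.53%, 3.27% and 5.03% had an r at least as high. Sesn2 had an r of 0.596 (18.5% of all genes). Without tumors 36 and 18, r was -0.33 for Bbc3, 0.438 for Sesn2, 0.611 for Ccng1 and 0.963 for Mdm2. The death gene Pmaip1 was lower in every FSP1-Cre;NT3 tumor than in every Osx-Cre;NT3 tumor, as were 7.97% of all genes tested, and with all 6 tumors no gene of the 10 passed correction over all genes tested.

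RNA was sequenced from 6 spontaneous subcutaneous tumors, each from a different female mouse. All of the mice carried NT3, a form of the NF-κB inducing kinase NIK that lacks its TRAF3 binding domain and is therefore constitutively active, on a C57Bl/6J background and behind a STOP cassette that Cre removes. In the Osx-Cre;NT3 mice Cre is driven by Osterix (Sp7) regulatory sequence, which marks osteoblast-lineage cells, in a Tet-OFF form in mice of mixed C57Bl/6J and CD1 origin, and doxycycline chow kept it off until weaning. In the FSP1-Cre;NT3 mice it is driven by the promoter of S100a4, active mostly in fibroblasts, on an FVB/n background and with no doxycycline. Both drivers are also known to act outside the mesenchymal lineage. Osx-Cre;NT3 tumors 13, 18 and 25, named by mouse number, came from the trunk after a latency of 150, 168 and 115 days. FSP1-Cre;NT3 tumors 27 and 36 were perineal, with latencies of 101 and 52 days, and tumor 29 came from the trunk after 72 days. Strain, doxycycline and latency therefore cannot be told apart from the line, and site can be compared only within FSP1-Cre;NT3. Normal tissue was not analysed here.

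p53 is a transcription factor that is kept scarce in unstressed cells because Mdm2, itself a p53 target, marks it for destruction. DNA damage or oncogene activity stabilises the protein, the latter partly through p19Arf, one of the products of Cdkn2a, which blocks Mdm2. Stabilised p53 then raises genes that halt the cell cycle (Cdkn1a, Ccng1), open the mitochondrial pathway of apoptosis (Bax, Bbc3, Pmaip1) or answer metabolic stress (Sesn2, Gdf15). Since p53 activity is set mostly at the level of the protein, the amount of its messenger RNA is only part of what sets its targets, and neither the protein nor mutations were measured in these counts.

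The total counts on genes ranged from 51824408 in tumor 13 to 163297772 in tumor 18, so that sequencing depth was no limit for 9 of the 10 genes. The exception was Gdf15, with from 34 to 120 counts. Tumor 36 stood apart from the rest. The ribosomal RNA precursor Rn45s took 13.3% of its counts, against 10.2% and 7.004% in the other FSP1-Cre;NT3 tumors and from 5.28% to 7.65% in Osx-Cre;NT3, and the part of this share in the results below was not tested. Summed over its 6 markers, simple epithelium reached 4720 CPM there (counts divided by TMM-scaled library size) and from 664 to 1274 CPM in the others. Not every one of these markers was highest in tumor 36. Cldn4 was lowest there, at 60.2 CPM, and Krt18 was highest in an Osx-Cre;NT3 tumor, at 444 CPM. The 4 smooth muscle markers reached 2069 against 225 to 507 CPM, the 3 neutrophil markers 459 against 18.5 to 154 CPM, and the 4 adipocyte markers 123 against 2.32 to 34.3 CPM. The sum of the 5 markers of basal keratinocytes was lowest in tumor 36, at 5489 against 9619 to 13935 CPM. Krt5, Krt14 and Krt15 made up most of it. Itga6 and Col17a1 were instead lowest in Osx-Cre;NT3 tumors, at 39.5 and 66.3 CPM. By line, the 5 fibroblast markers summed to 3459 to 4622 CPM in Osx-Cre;NT3 and 7978 to 10531 CPM in FSP1-Cre;NT3 tumors. No marker of these lists was at 0 in any tumor. The tumors are labelled by site only. They held both fibroblast and keratinocyte transcripts at high levels, and the 3 skeletal muscle markers summed to at most 98.5 CPM. In such bulk samples, fewer cells of a type and less RNA per cell cannot be told apart.

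To show where p53 itself could act on these genes, the sequence before their start sites was searched for the p53 decamer consensus, the 10-base unit of which a pair makes a full p53 site. Promoter windows of 300 bases, from 250 bases before to 50 after the start, were taken from RefSeq (GRCm38.p6), and 9 of the 10 genes had 1 or more windows, 14 in all. A decamer with no mismatch, on either strand, was present in 5 of the 14 windows, where 8.36% of all 32851 windows hold one. They were 1 window each of Trp53, Mdm2, Bax, Ccng1 and Cdkn1a. A full site is a pair of decamers with at most 1 mismatch each and a spacer of 0 to 13 bases. It was present in 2 of the 14 windows, 1 each of Ccng1 and Cdkn1a, against 2.71% of all windows. The windows of Cdkn2a, Bbc3, Sesn2 and Gdf15 held no exact decamer. The 250 bases before the start are shown for Trp53 and for 3 of the targets with an exact decamer, Mdm2, Ccng1 and Cdkn1a. They lie at chr11:69580109-69580358 on the plus strand for Trp53 and chr10:117710759-117711008 on the minus strand for Mdm2. Those of Ccng1 lie at chr11:40755287-40755536 on the minus strand, and those of Cdkn1a at chr17:29090729-29090978 on the plus strand. Capitals mark exact decamers, and each line reads 5′ to 3′ in the direction of the gene.
Trp53: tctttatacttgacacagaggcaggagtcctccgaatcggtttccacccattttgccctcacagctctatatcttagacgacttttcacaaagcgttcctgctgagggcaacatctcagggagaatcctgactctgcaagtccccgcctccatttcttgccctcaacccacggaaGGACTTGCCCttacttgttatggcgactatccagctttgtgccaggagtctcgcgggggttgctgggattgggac
Mdm2: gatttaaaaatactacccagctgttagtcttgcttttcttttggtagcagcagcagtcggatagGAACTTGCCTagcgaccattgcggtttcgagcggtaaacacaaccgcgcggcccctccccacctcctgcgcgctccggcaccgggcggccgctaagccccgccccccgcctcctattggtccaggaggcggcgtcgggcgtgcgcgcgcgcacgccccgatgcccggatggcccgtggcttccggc
Ccng1: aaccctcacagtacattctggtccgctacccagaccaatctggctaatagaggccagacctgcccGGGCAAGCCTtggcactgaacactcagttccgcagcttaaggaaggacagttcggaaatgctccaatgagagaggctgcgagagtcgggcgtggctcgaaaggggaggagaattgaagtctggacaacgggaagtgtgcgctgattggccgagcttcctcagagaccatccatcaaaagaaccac
Cdkn1a: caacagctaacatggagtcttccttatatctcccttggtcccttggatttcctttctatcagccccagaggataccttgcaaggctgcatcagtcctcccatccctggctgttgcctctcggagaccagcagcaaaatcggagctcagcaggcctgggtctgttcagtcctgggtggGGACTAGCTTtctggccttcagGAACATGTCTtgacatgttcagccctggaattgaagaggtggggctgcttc
The exact decamer began at base -75 in Trp53, -186 in Mdm2 and -185 in Ccng1, where -1 is the last base before the start. In Ccng1 it formed a full site, with no spacer, with the 10 bases before it. In Cdkn1a a pair of exact decamers, at -73 and -51, was separated by 12 bases, an arrangement with both copies exact that 0.0731% of all windows hold, and the decamer at -51 was followed directly by a near-match. Such a match is a description of letters and not a site shown to be bound. For Mdm2 the well-known p53 sites lie in the first intron, outside this window.

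Trp53 (chromosome 11 of GRCm38, 69580359 to 69591873, plus strand) had 181 CPM in tumor 13, 142 CPM in tumor 18 and 206 CPM in tumor 25 of the Osx-Cre;NT3 line. In the FSP1-Cre;NT3 tumors it had 183 CPM in tumor 27, 174 CPM in tumor 29 and 89.6 CPM in tumor 36. Tumor 36 was the only one far from the rest, and the lines overlapped. The mean of the Osx-Cre;NT3 line was 176 ± 32.7 CPM (SD, n = 3), and that of the FSP1-Cre;NT3 line was 149 ± 51.4 CPM (SD, n = 3). The log2 fold change of FSP1-Cre;NT3 over Osx-Cre;NT3 was -0.24 (SE 0.31, adjusted p = 0.754, edgeR, Benjamini-Hochberg over 16415 genes), and without tumor 36 it was 0.016. No annotated gene overlaps Trp53 on either strand in GENCODE M21. A Trp53 pseudogene exists elsewhere in the mouse genome, and how the counting treated reads shared with it is not stated.

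**Figure D1:**
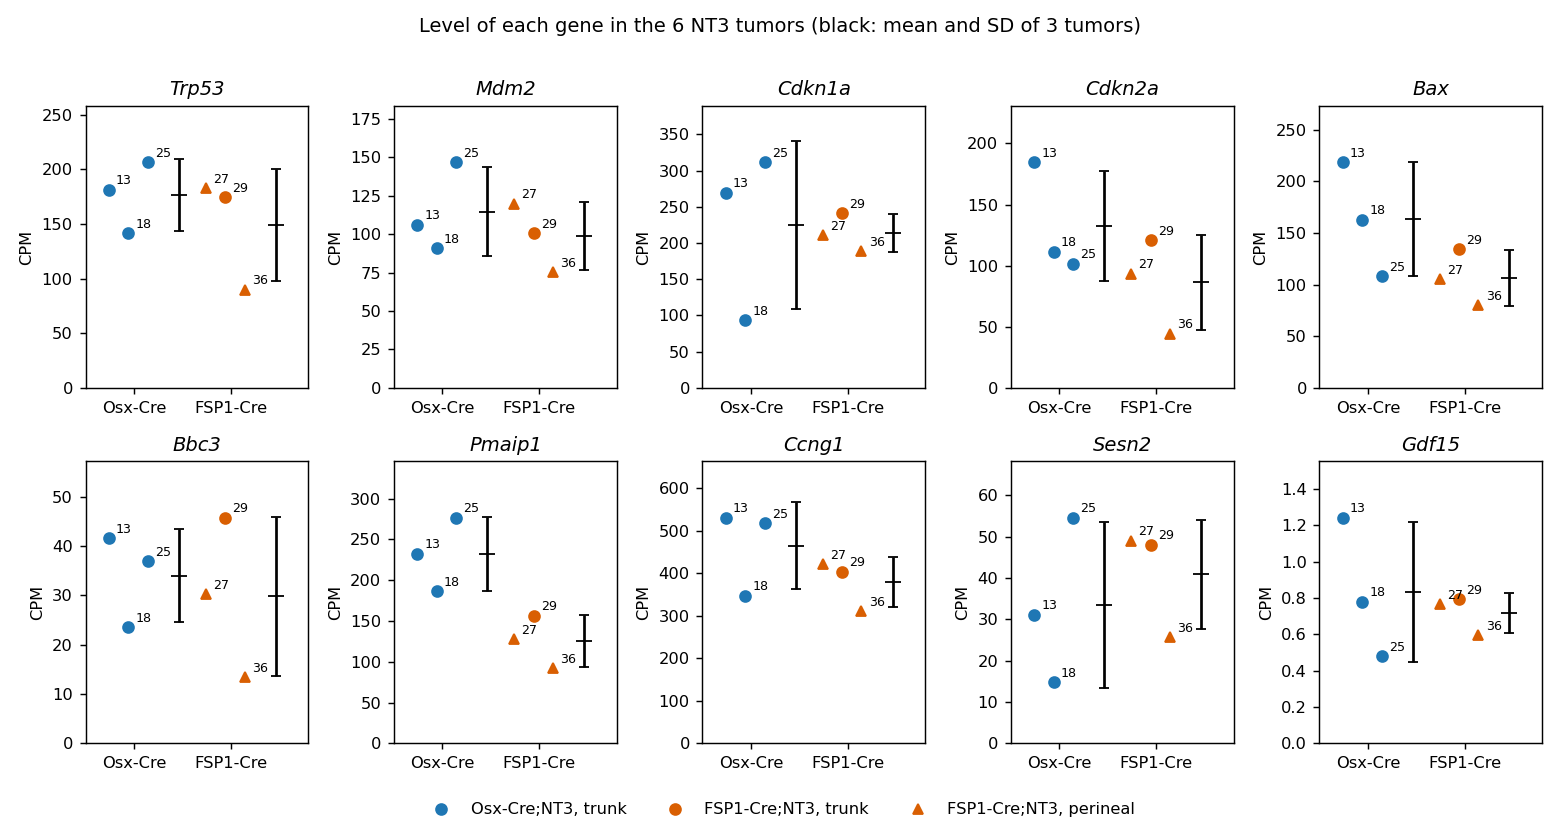
Level of each gene in CPM (vertical axis, starting at 0) in the 3 Osx-Cre;NT3 and 3 FSP1-Cre;NT3 tumors, with the mouse number beside each point, triangles for perineal tumors, and the mean and SD of each line in black. Pmaip1 is the gene whose lines do not overlap, from 186 to 276 against 91.9 to 156 CPM, and tumor 36 holds the lowest point of 7 genes.

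The genes were also ordered by length-corrected level. RPKM values (counts scaled to the coding length that the table gives and to the size of the library) put Bax highest with a mean of 123 ± 39.4 (SD, n = 6 tumors), followed by Ccng1 at 96.8 ± 20.3, Cdkn1a at 87.0 ± 30.2, Cdkn2a at 76.4 ± 29.0, Trp53 at 69.9 ± 19.1 and Pmaip1 at 53.5 ± 19.7 RPKM. Neighbours among the first 5 of these changed places from tumor to tumor, and Ccng1 was above Cdkn1a in 3 of 6 tumors. Trp53 was above Pmaip1, Pmaip1 above Mdm2 and Mdm2 above Bbc3 in 6 of 6. Mdm2 had 28.4 ± 7.39, Bbc3 12.9 ± 4.80 and Sesn2 11.4 ± 5.15 RPKM. Bbc3 exceeded Sesn2 in 3 of 6 tumors, so these neighbours did not differ beyond their spread. Gdf15 lay far below the rest, at 0.570 ± 0.173 RPKM.

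The regulators of p53 came first in the comparison. Mdm2 (chromosome 10, minus strand), the ubiquitin ligase that degrades p53, had 106, 91.0 and 147 CPM in tumors 13, 18 and 25, and 120, 101 and 75.4 CPM in tumors 27, 29 and 36. Its tumors stood in exactly the order of Trp53, from tumor 36 through 18, 29, 13 and 27 up to 25. Of the genes on the lists used here, Ccnd1, cyclin D1, had the same order (rho 1), and the smooth muscle gene Tagln the reverse (rho -1). Over the 6 tumors, Pearson's r of log2 CPM was 0.897 (exact permutation p = 0.00278, the smallest that 6 tumors can give) and Spearman's rho was 1 (exact permutation p = 0.00278). Without tumors 36 and 18, the farthest from the median of Trp53, r was 0.963, and leaving out any single tumor gave from 0.891 to 0.938. As deviations from the mean of each line r was 0.882 (exact permutation p = 0.0556 over 36 pairings within lines, the smallest these can give). Among all 16414 genes set against Trp53 in the same way, 3.27% had an r at least as high, and adjusted over all of them the p for Mdm2 was 0.319. That value was also the smallest of any gene, so 0 genes (0.0%) passed 0.05, with 1919 at an unadjusted p under 0.05. Of these, 121 genes, Mdm2 among them, had the smallest exact permutation p.

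Cdkn2a (chromosome 4, minus strand) gives both p16Ink4a, an inhibitor of the kinases Cdk4 and Cdk6, and p19Arf, the inhibitor of Mdm2. The count of the gene joins the 2 products, which start from separate promoters. It had 185 CPM in tumor 13, 111 in tumor 18 and 102 in tumor 25, against 93.5, 121 and 44.4 CPM in tumors 27, 29 and 36. Both extremes were single tumors, 13 above and 36 below the others. The log2 fold change between the lines was -0.62 (SE 0.41, adjusted p = 0.534 from the same edgeR test). Its r with Trp53 of 0.778 (exact permutation p = 0.2, rho 0.143 with exact p = 0.803) rested on tumor 36. It was -0.04 without that tumor and -0.36 without the 2 farthest.

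Of the genes that stop the cell cycle, Cdkn1a (chromosome 17, plus strand), which encodes the kinase inhibitor p21, had 270, 93.6 and 311 CPM in tumors 13, 18 and 25 and 211, 241 and 188 CPM in tumors 27, 29 and 36. Tumor 18 was the low one here, where Trp53 was only the second lowest. An annotated gene on the opposite strand overlaps Cdkn1a, and since the strandedness of the counting is not stated, its reads could be included. The r with Trp53 was 0.475 (exact permutation p = 0.344, rho 0.771 with exact p = 0.103) and 0.730 without tumors 36 and 18. Without tumor 36 alone it rose to 0.948 (exact permutation p = 0.0667, where 0.0167 is the smallest that 5 tumors can give).

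Ccng1 (chromosome 11, minus strand), cyclin G1, which recruits a phosphatase that acts on Mdm2, was the most even of the 10 genes. It had 530, 346 and 517 CPM in the Osx-Cre;NT3 tumors 13, 18 and 25 and 421, 403 and 311 CPM in the FSP1-Cre;NT3 tumors 27, 29 and 36, a 1.70-fold range. Tumors 36 and 18 were lowest for Ccng1 as for Trp53. The r with Trp53 was 0.860 (exact permutation p = 0.0167, rho 0.829 with exact p = 0.0583), with 0.611 left without those 2 tumors and from 0.822 to 0.912 when any single tumor was left out. Adjusted over all genes its p was 0.329.

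**Figure D2:**
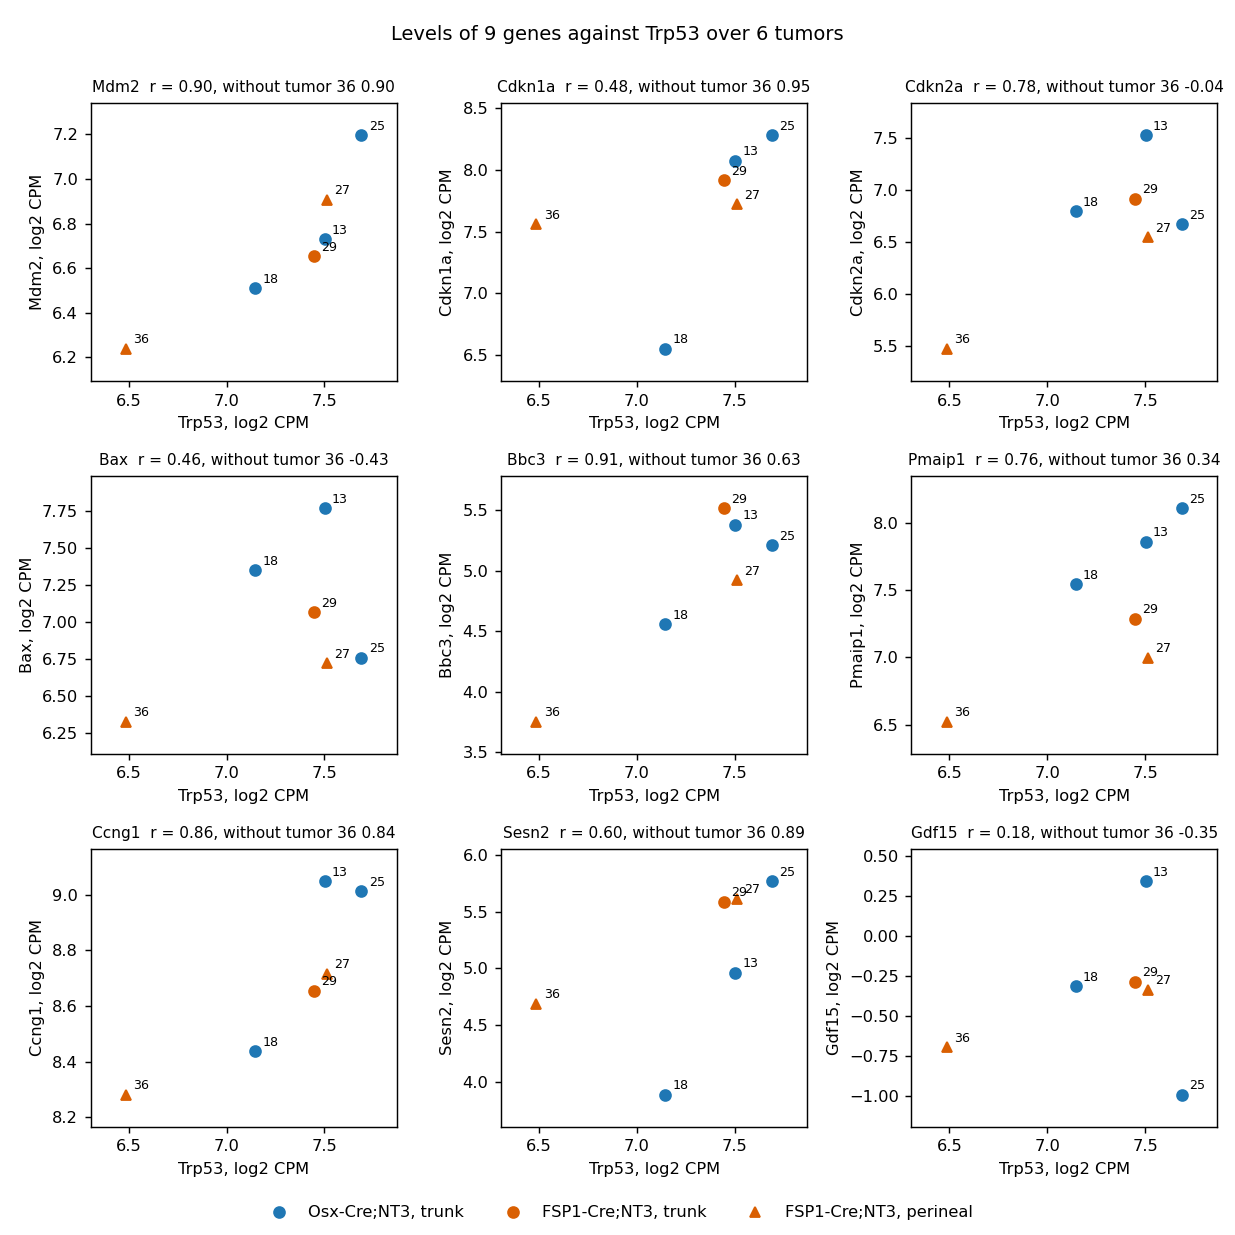
Log2 CPM of each of the 9 genes (vertical axes) against log2 CPM of Trp53 (horizontal axes) in the 6 tumors, labelled by mouse number, with triangles for perineal tumors. Mdm2 keeps the order of Trp53 in every tumor and Ccng1 is lowest in the same 2 tumors, whereas for Cdkn2a, Bax and Gdf15 the r given in the panel title is at or below 0 once tumor 36 is left out.

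The genes of the mitochondrial death pathway did not move as a block. Bax (chromosome 7, minus strand), the pore-forming effector, had 218 CPM in tumor 13, 163 in tumor 18 and 108 in tumor 25, and 105, 134 and 80.0 CPM in tumors 27, 29 and 36. It was thus low in tumor 25, where Trp53 was highest. Its r with Trp53 was 0.456 (exact permutation p = 0.347, rho 0.0857 with exact p = 0.919), and it was -0.43 without tumor 36 and -0.41 without the 2 farthest. Part of Bax overlaps another annotated gene on the same strand, so that reads in the shared part are uncertain.

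Bbc3 (chromosome 7, plus strand), which encodes the BH3-only protein PUMA, had 41.6, 23.5 and 36.9 CPM in tumors 13, 18 and 25 and 30.2, 45.7 and 13.4 CPM in tumors 27, 29 and 36. It was lowest in tumors 36 and 18 like Trp53, but the remaining 4 tumors stood in another order. Its r of 0.913 (exact permutation p = 0.05, rho 0.486 with exact p = 0.356) was above that of Mdm2 and yet rested on the low tumors, with 0.635 without tumor 36 and -0.33 without tumors 36 and 18.

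Pmaip1 (chromosome 18, plus strand), which encodes the BH3-only protein NOXA, was the only gene of the 10 whose lines did not overlap. It had 233, 186 and 276 CPM in tumors 13, 18 and 25, and 128, 156 and 91.9 CPM in tumors 27, 29 and 36. Every FSP1-Cre;NT3 tumor was below every Osx-Cre;NT3 tumor, as were 7.97% of all genes tested, so that 1 such gene among 10 is near the background. Means were 232 ± 45.0 CPM (SD, n = 3) and 125 ± 32.3 CPM (SD, n = 3), a log2 fold change of -0.89 (SE 0.26, unadjusted p = 0.0124, adjusted p = 0.458 with edgeR's quasi-likelihood test). DESeq2 gave -0.90 with an adjusted p = 0.0786. In DESeq2 fits added after the data were seen, the adjusted p of Pmaip1 was 0.0389 without tumor 18 and 0.0268 without tumor 29, where 3.01% and 4.39% of all genes were called. Relative to Trp53, its RPKM was 0.903 to 0.943 times that of Trp53 in the 3 Osx-Cre;NT3 tumors and 0.493, 0.631 and 0.721 times in tumors 27, 29 and 36. The fibroblast markers, higher in every FSP1-Cre;NT3 tumor, moved with this difference, and their part in the result was not tested.

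Within Osx-Cre;NT3 the order of Pmaip1 was that of Trp53, from tumor 25 to 13 to 18. Within FSP1-Cre;NT3 it was not, as Trp53 fell from tumor 27 to 29 to 36 and Pmaip1 from tumor 29 to 27 to 36. Its r with Trp53 over all tumors was 0.762 (exact permutation p = 0.111, rho 0.600 with exact p = 0.242), 0.912 as deviations from the line means (exact permutation p = 0.111) and 0.339 without tumor 36. Without tumors 36 and 18 it was 0.694.

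The stress genes differed from each other. Sesn2 (chromosome 4, minus strand), which encodes the mTORC1 inhibitor Sestrin 2, had 31.1, 14.8 and 54.5 CPM in tumors 13, 18 and 25, and 49.0, 48.0 and 25.7 CPM in tumors 27, 29 and 36. As for Cdkn1a, tumor 18 was lowest. Sesn2 overlaps another annotated gene on the same strand, so that reads in the shared part are uncertain. Its r with Trp53 was 0.596 (exact permutation p = 0.306, rho 0.886 with exact p = 0.0333), 0.895 without tumor 36 and 0.438 without tumors 36 and 18. Gdf15 (chromosome 8, minus strand), which encodes a secreted stress cytokine, had 1.24, 0.779 and 0.479 CPM in tumors 13, 18 and 25 and 0.767, 0.795 and 0.594 CPM in tumors 27, 29 and 36. It was lowest in tumor 25, the tumor highest in Trp53, and its r was 0.180 (exact permutation p = 0.686, rho -0.20 with exact p = 0.714), turning to -0.35 without tumor 36 and -0.74 without the 2 farthest. All of these are low levels, at which counting error adds to the spread between tumors.

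Of the 9 genes, 9 had an r with Trp53 above 0, as did 51.5% of all genes tested, and 2 (Mdm2 and Ccng1) did so with an unadjusted exact p under 0.05, as did 5.94%. After adjustment over the 9 relations computed, Mdm2 alone passed 0.05, and with DESeq2's size factors Ccng1 did so too. Leaving out any single tumor, or taking deviations from the line means, left 0. The smallest exact permutation p is then 0.0167 or 0.0556, at which 1 gene alone cannot pass adjustment over 9. These zeros therefore say little about the stability of Mdm2. The median r was 0.762, against 0.0256 for all genes tested. Tumor 36 was the lowest of the 6 for 7 of the 10 genes, where 23.8% of all genes tested were lowest there. Without tumor 36, 6 of the 9 genes had an r above 0 (49.0% of all genes), 1 with an unadjusted exact p under 0.05 (3.35%), and the median r was 0.635 against -0.031. The simple epithelium, smooth muscle, neutrophil and adipocyte sums given above were highest in tumor 36, and the basal keratinocyte sum was lowest there. Their r with Trp53 was -0.867, -0.747, -0.795, -0.795 and 0.874, in that order (exact permutation p 0.142, 0.328, 0.114, 0.103 and 0.111, n = 6). Without tumor 36 it was -0.181, 0.813, -0.282, -0.381 and 0.305. The part of these sums in the correlations of the 9 genes was not tested.

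Each gene was also set against Trp53 as a ratio. In RPKM, Mdm2 ranged from 0.356 to 0.519 of Trp53, a 1.46-fold spread over tumors, and Ccng1 from 1.23 to 1.86, a 1.51-fold spread. Bbc3 spread 1.75-fold, Pmaip1 1.91-fold, Cdkn2a 2.06-fold and Bax 2.30-fold. The widest were Sesn2 at 2.75-fold, Gdf15 at 2.95-fold and Cdkn1a at 3.18-fold, from 0.610 in tumor 18 to 1.94 in tumor 36. The ratio was highest in tumor 36, where Trp53 was lowest, for Mdm2, Ccng1, Cdkn1a and Sesn2. For 8 of the 9 genes the log2 ratio varied less over the tumors than the gene's own log2 level, with Gdf15 the exception. The share of all genes for which this holds was not computed, so the count is a description only. For Bax the 2 spreads were close, with an SD of 0.498 for the ratio and 0.513 for the level.

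**Figure D3:**
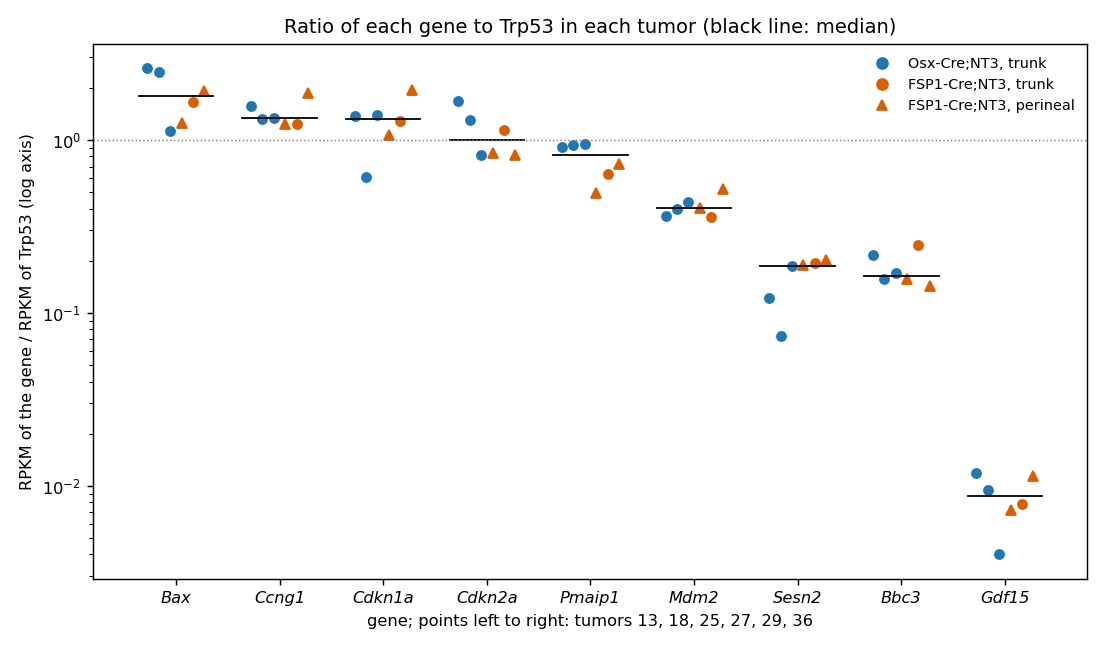
Ratio of the RPKM of each gene to that of Trp53 (log axis) in the 6 tumors, from left to right tumors 13, 18, 25, 27, 29 and 36, with triangles for perineal tumors and a black line at the median. The points of Mdm2 and Ccng1 lie closest together, and those of Pmaip1 lie between 0.903 and 0.943 in the Osx-Cre;NT3 tumors and below them in the FSP1-Cre;NT3 tumors.

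By line, 9 of the 10 genes had a lower level in FSP1-Cre;NT3 tumors, as did 48.9% of all genes tested, and Sesn2 had the higher one (log2 fold change 0.29, SE 0.49). The median log2 fold change of the 10 was -0.23 against 0.015 for all genes. None passed an adjusted p of 0.05 with edgeR's quasi-likelihood test (0.0% of 16415 genes did, with 1770 at an unadjusted p under 0.05). Pmaip1 was the 1 gene at an unadjusted p under 0.05, and 3.47% of all genes were so and lower. With site as a covariate, or on trunk tumors only, 0 of the 10 had even an unadjusted p under 0.05. DESeq2 called 0 of the 10 and 412 of all genes (2.51%). Besides Pmaip1 and Cdkn2a the largest difference was that of Bax, -0.61 (SE 0.32, adjusted p = 0.471 from edgeR), and DESeq2 called Bax once tumor 25 was left out (adjusted p = 0.0317), a fit that called 21.6% of all genes. The directions of 5 genes turned when 1 tumor was left out. Without tumor 36 the log2 fold changes of Trp53, Cdkn1a and Bbc3 were 0.016, 0.0069 and 0.16. That of Cdkn1a was also above 0 without tumor 13 or 25, that of Gdf15 was 0.19 without tumor 13, and that of Sesn2 was -0.071 without tumor 18.

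By site, the 2 perineal tumors were compared with the 4 trunk tumors. Pmaip1 (log2 fold change -0.96, SE 0.31), Cdkn2a (-0.91, SE 0.39) and Bax (-0.75, SE 0.33) were lower in both perineal tumors than in all trunk tumors, as were 9.36% of all genes tested. Their adjusted p-values were 0.348, 0.477 and 0.487 with edgeR, so that 0 of the 10 genes were called (0.0% of 16971 genes). Of the 10, 1 gene, Pmaip1, had an unadjusted p under 0.05 (1.63% of all genes had one and were lower), and DESeq2 called 0 of the 10 and 598 of all genes (3.52%). In all, 1784 genes (10.5%) had an unadjusted p under 0.05 with edgeR. Bbc3 was at -0.76 (SE 0.41) and Trp53 at -0.37 (SE 0.33), and that of Trp53 turned to 0.052 without tumor 36. The perineal tumors are both FSP1-Cre;NT3. With line as a covariate, 0 of the 10 genes, and 263 of all 16971, had an unadjusted p under 0.05. The difference by site then rested on tumor 29 as the only trunk tumor of that line. With tumor 27 left out, edgeR called 567 genes (3.2%) but none of the 10, while DESeq2 called Cdkn2a (adjusted p = 0.0177) and Bbc3 (adjusted p = 0.0402), and 8.38% of all genes. Tumor 36 was then the single perineal tumor, and its spread was taken to be that of the trunk tumors. Without tumor 29, DESeq2 called Pmaip1 (adjusted p = 0.0268) and 4.39% of all genes, and the comparison by site was then the same as that by line. The neutrophil sum was 154 and 459 CPM and the adipocyte sum 34.3 and 123 CPM in the perineal tumors, against at most 60.6 and 12.5 CPM on the trunk, and their part in these differences was not tested.

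**Figure D4:**
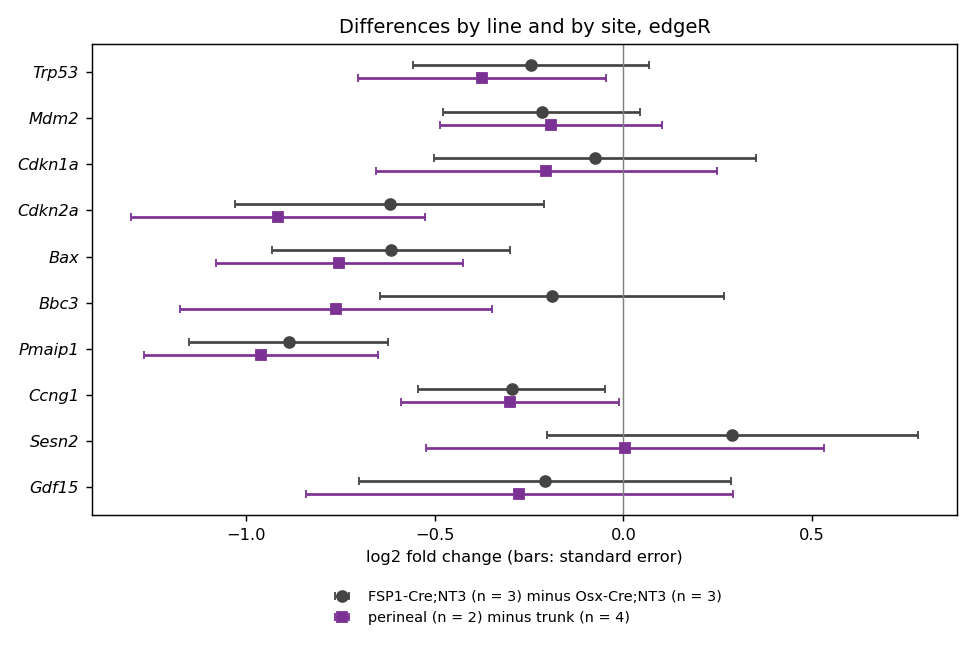
Log2 fold change of each gene (horizontal axis, with standard errors derived from edgeR's F statistic) for FSP1-Cre;NT3 minus Osx-Cre;NT3 tumors (circles, 3 against 3) and for perineal minus trunk tumors (squares, 2 against 4). Most points lie left of 0, with Pmaip1 at -0.89 and -0.96 the farthest from 0 relative to its standard error, and both comparisons share tumors.

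The wider pathway was read from lists of 33 further p53 targets. Between the lines 0 of the 33 passed an adjusted p of 0.05 with edgeR, 1 was higher and 2 were lower at an unadjusted p under 0.05, and 20 of the 33 had a lower level in FSP1-Cre;NT3 tumors. Over all genes 10.8% had such a p and 48.9% were lower, so that neither count stands far from the background. The 3 were Btg2, an antiproliferative gene (log2 fold change 0.55, unadjusted p = 0.0315), Gadd45a, which acts in growth arrest and DNA repair (-0.80, unadjusted p = 0.0208), and Cop1, a ubiquitin ligase for p53 (-0.43, unadjusted p = 0.0372), each with an adjusted p = 0.458. The highest levels among the targets were those of the desmosomal gene Perp, with 350 RPKM, of Sfn (14-3-3 sigma) with 111 RPKM and of Phlda3, an inhibitor of Akt, with 108 RPKM. In all, 28 of the 33 had an r with Trp53 above 0, with a median of 0.465, and 4 did so with an unadjusted exact p under 0.05, where 51.5% and 5.94% of all genes did. Without tumor 36 the median was 0.606. By group, the median r was 0.627 for the 10 death targets, 0.335 for the 11 repair and metabolism targets, 0.311 for the 9 arrest targets and 0.167 for the 3 feedback targets. Without tumor 36 these medians were 0.816, 0.606, 0.639 and -0.52, the last with its sign turned.

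The relatives and regulators of p53 were read in the same way. Trp63 and Trp73 encode the p53 family members p63 and p73, of which p63 is the master regulator of stratified epithelium and binds sites like those of p53. Trp63 had 312, 248 and 393 CPM in tumors 13, 18 and 25 and 383, 356 and 198 CPM in tumors 27, 29 and 36, and was lowest in tumors 36 and 18 and highest in tumor 25, as was Trp53. Its r with Trp53 was 0.945 over 6 tumors (unadjusted exact permutation p = 0.0139, rho 0.943 with exact p = 0.0167), 0.901 without tumor 36 and 0.548 without tumors 36 and 18. Trp73 was lower, at 7.6 RPKM against 42.0 for Trp63, with an r of 0.636 (unadjusted exact permutation p = 0.344, rho 0.543 with exact p = 0.297), which turned to -0.57 without tumors 36 and 18. Of 14 regulators of p53, 12 had an r above 0 (51.5% of all genes did), with a median of 0.280 that was 0.745 without tumor 36, and 0 passed an unadjusted p of 0.05 between the lines. Usp7, which removes ubiquitin from Mdm2 and p53, was the highest of them at 22.3 RPKM. Among 6 neighbours of Cdkn2a in the retinoblastoma pathway, Cdk4 had 171 RPKM and Ccnd1, cyclin D1, 83.2 RPKM, and 0 of the 6 passed an unadjusted p of 0.05 between the lines.

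**Figure D5:**
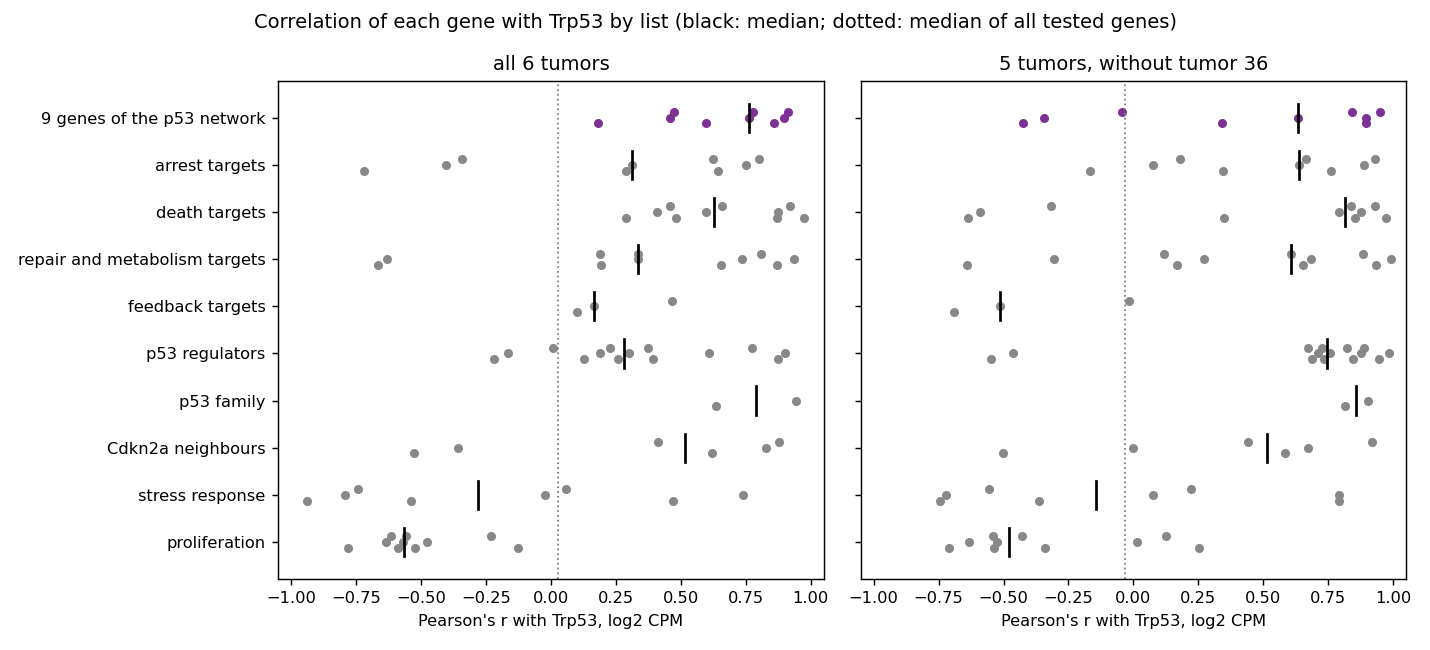
Pearson's r of log2 CPM with Trp53 (horizontal axes) for every gene of each list, over all 6 tumors (left) and without tumor 36 (right), with the median of the list in black and that of all genes tested as a dotted line. The 9 genes of the p53 network have medians of 0.762 and 0.635, and the proliferation genes lie below 0 on the left, with a median of -0.56.

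Genes of dividing cells had no stable relation to Trp53. Of 10 proliferation genes 0 had an r with Trp53 above 0, with a median of -0.56 (-0.48 without tumor 36, when 3 were above 0), and 0 had an unadjusted exact p under 0.05 in either direction. Without tumors 36 and 18, 10 of the 10 had an r above 0, with a median of 0.845 over the 4 tumors left. Of all 16414 genes, 7927 had an r above 0 over these 4 tumors, with a median of -0.039. So did 13 of the 14 regulators of p53 (median 0.590) and 5 of the 9 genes of its network (median 0.438). Top2a, which untangles replicated DNA, was the highest of the proliferation genes at 19.4 RPKM. Cdk1, the mitotic kinase, was lower in FSP1-Cre;NT3 tumors (log2 fold change -0.76, unadjusted p = 0.0324, adjusted p = 0.458 with edgeR). Of the 8 genes of the ATF4 stress response, which also controls Sesn2 and Gdf15, 3 had an r above 0, with a median of -0.28, and 0 of the 8 passed an unadjusted p of 0.05 between the lines. Atf4 itself had 78.9 RPKM.

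The genes most like Trp53 over the 6 tumors, among 10321 with a mean of at least 10 CPM, were Exoc7 with an r of 0.996, Ehd1 with 0.996, Zic2 with 0.996, Ripk4 with 0.995 and Sec1 with 0.995. They were chosen by this r, which carries no test. None of them is on the lists. By this choice every other gene of the 10321 lies below these 5, Mdm2 at 0.897 and Bbc3 at 0.913 among them.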

How the data were processed

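Tumor RNA was sequenced on an Illumina HiSeq2500, and the authors deposited raw read counts per gene with no normalization, and RPKM values scaled to coding length and library size. The labels name bcl2fastq, TopHat2 2.0.6, HTSeq and mm10, whereas the methods name trimming, HISAT2 and featureCounts on mm10, and which made the table is not settled here. Annotation and strandedness are not given in the sources used here. Every count is even, so paired ends may each have been counted. The reads carry no molecular identifiers. Mean RNA integrity differed with the line, being higher in FSP1-Cre;NT3.

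The quasi-likelihood test of edgeR 4.0.16 (R 4.3.3) was applied to the counts (filterByExpr, TMM, glmQLFit, glmQLFTest, Benjamini-Hochberg over all genes tested), with line or site as the only factor, and with DESeq2 1.42.0 as an alternative. The SE given with an edgeR log2 fold change is its absolute value divided by the square root of the F statistic of the test. Each tumor is a separate mouse. Levels are CPM after TMM, and log2 CPM has a prior count of 2. Correlations were tested two-sided by exact permutation over the 720 pairings of 6 tumors. Promoter windows were RefSeq's. The tests were checked on simulated data. All 125 list genes were found, under a current or an older symbol. The genes and lists were chosen with earlier results of these data known. Named from the other lists are genes past 0.05 between the lines before adjustment or after it by line or site, and the 2 with the highest mean RPKM, though markers of cell types are given as sums and not every gene the rule allows is printed. The 5 genes most like Trp53 are named as well, and so are the 4 further targets with an unadjusted exact p of r under 0.05. No tumor lay beyond Dixon's 95% critical value in any of the 20 sets of values examined. Alternatives were other scalings, filters, covariates and leaving out each tumor.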

Additional observations from a re-analysis of the deposited data

How the results depend on the processing

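No paired analysis was possible because the lines share no mouse numbers. Of 420 recomputed log2 fold changes of the 10 genes, 382 kept their direction and their side of the threshold. The counts of calls depended on the tool. DESeq2 called 412 genes by line and 598 by site where edgeR called 0. Leaving out each tumor, edgeR called 0 by line and from 0 to 567 by site (567 without tumor 27 and 2 without tumor 25). DESeq2 called from 188 (without tumor 36) to 3637 (without tumor 25) by line, and from 14 (without tumor 36) to 1485 (without tumor 27) by site, and of the 10 genes from 0 to 1 by line and from 0 to 2 by site. The cause was not tested. These DESeq2 fits and halved counts were added after seeing the data, and halving changed no call of the 10 genes.

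By line, Cdkn1a turned to 0.029 with library sizes alone, 0.10 with site as a covariate and 0.10 on trunk tumors only, and Bbc3 to 0.43 and 0.42 in the last 2. Leaving out single tumors gave log2 fold changes from -0.45 to 0.20 for Cdkn1a (DESeq2 -0.46 to 0.22), -0.66 to 0.16 for Bbc3 (-0.66 to 0.14), -0.53 to 0.19 for Gdf15 (-0.50 to 0.16), -0.071 to 0.80 for Sesn2 (-0.081 to 0.82) and -0.43 to 0.016 for Trp53. By site, Sesn2 was at 0.0044 and turned to -0.012 with DESeq2, -0.012 with its size factors, -0.0036 with no filter, -0.37 with line as a covariate and -0.37 on FSP1-Cre;NT3 tumors only. Leaving out single tumors gave -0.55 to 0.40 for Sesn2 (-0.53 to 0.36), -1.002 to 0.052 for Trp53 (-0.97 to 0.020) and -0.59 to 0.11 for Mdm2 (-0.56 to 0.076). Of these 10 genes, Pmaip1, Cdkn2a, Bax and Ccng1 kept their direction in every alternative by line and by site.

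The count of genes correlated with Trp53, 1 with all tumors, was 2 with DESeq2's size factors and 0 with deviations from the line means, without the 2 farthest tumors and without any single tumor (range 0 to 0). The smallest exact permutation p is 0.0833 with 4 tumors and 0.0556 within lines, so those zeros were fixed in advance and say nothing about stability. With 5 tumors it is 0.0167, at which 1 gene alone cannot pass adjustment over 9. Mdm2 had that exact permutation p without tumor 36, and an adjusted p of 0.15. The zeros without single tumors therefore say little about the stability of a single gene. The median r was 0.60 as Spearman's rho, 0.438 without the 2 farthest tumors and from 0.635 (without tumor 36) to 0.825 without single tumors. The r of Gdf15 turned to -0.20 as Spearman's rho. Without the 2 farthest tumors, r was -0.36 for Cdkn2a, -0.41 for Bax, -0.33 for Bbc3 and -0.74 for Gdf15. Without single tumors it ranged from -0.043 to 0.863 for Cdkn2a, from -0.43 to 0.639 for Bax and from -0.35 to 0.711 for Gdf15. Depth limits only Gdf15.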
